A study of Mus musculus with 12 samples.

Results

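The genes described here are the nuclear genes of respiratory complexes II, III, IV and V, with cytochrome c, in C2C12 myotubes treated with the mitochondrial uncoupler BAM15. They were chosen by symbol alone, as every row of the count table named Sdha to Sdhd, Sdhaf, Uqcr, Cyc1, Cycs, Cox followed by a digit, or Atp5, pseudogenes left out. This gave 59 of the 15113 genes in the table, with 8 in complex II, 9 in complex III, 24 in complex IV, 17 in complex V and 1 for cytochrome c. Symbols starting with Sdhaf, several of the numbered Cox genes, Cox7a2l and Atp5s were counted as assembly genes, and the others as subunits.

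Electrons from succinate enter the inner mitochondrial membrane through complex II, pass from ubiquinone to cytochrome c in complex III, and reach oxygen in complex IV, while complexes III and IV pump protons. Complex V, the ATP synthase, lets protons return through a rotating ring of c subunits and makes ATP. An uncoupler such as BAM15 carries protons across this membrane without passing through complex V, so part of respiration runs without ATP being made. All complex II subunits are encoded in the nucleus, whereas complexes III, IV and V each also hold subunits encoded in mitochondrial DNA. Some complex IV and V subunits have paralogs, and muscle expresses forms of Cox6a, Cox7a and Cox8 that most other tissues lack.

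C2C12 cells are mouse myoblasts that can be differentiated into myotubes, and no gene was altered in either group. Myotubes received 20 µM BAM15 or the DMSO vehicle for 16 h, and 6 libraries were made from each group. QuantSeq libraries are read from the 3′ end of polyadenylated RNA, so a gene's count does not grow with transcript length. Totals ran from 13983725 to 18866728 reads per library. Levels are given in CPM, the reads of a gene relative to the reads of its library after scaling by the TMM method, and changes as log2 fold changes of BAM15 minus vehicle with their standard errors (SE). A gene was called where edgeR's quasi-likelihood test gave a p below 0.01 after adjustment by Benjamini and Hochberg's method over the 12730 tested genes. Nothing in the sources used here ties the libraries to separate cultures, so p-values measure the spread between these libraries, which may be technical.

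The BAM15 libraries numbered 4 to 6 stood apart from those numbered 1 to 3. They did not overlap in 42 of the 58 tested members, with 21 members above and 21 below in libraries 4 to 6 (36.2% each, against 22.2% above and 27.7% below over the whole table). In vehicle, 7 members were above and 3 below (12.1% and 5.17%, against 6.6% and 7.6% over the whole table). Changes within libraries 1 to 3 and within libraries 4 to 6 are therefore given beside the main values. No source used here names a batch.

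Of the 58 members that passed the filter on low counts, 14 were lower and 5 higher after BAM15, and 39 were not called. The number lower was 9 without vehicle library 3 or 5, and 9 to 15 over all 12 omissions of 1 library. Over all tested genes, 20.3% were called lower and 22% higher, so that the 24.1% of members called lower lay near the background and the 8.62% called higher lay below it. Among the 42 subunits, 12 were called lower and 2 higher (28.6% and 4.76%), while 2 of the 15 assembly genes were lower and 3 higher. The median log2 fold change was −0.12 over the members and 0.02 over all tested genes. The changes were small. No member passed the thresholds in the study's methods (adjusted p below 0.01, base mean above 50 and more than 2-fold), which 7.28% of tested genes passed, and none did so by DESeq2, limma-voom or any other alternative run. All BAM15 libraries lay below all vehicle libraries in 12 members and above them in 5, where the whole table gave 17% below and 17.1% above. The member left untested, Cox7b2, had at most 3 counts in a library.

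**Figure D1:**
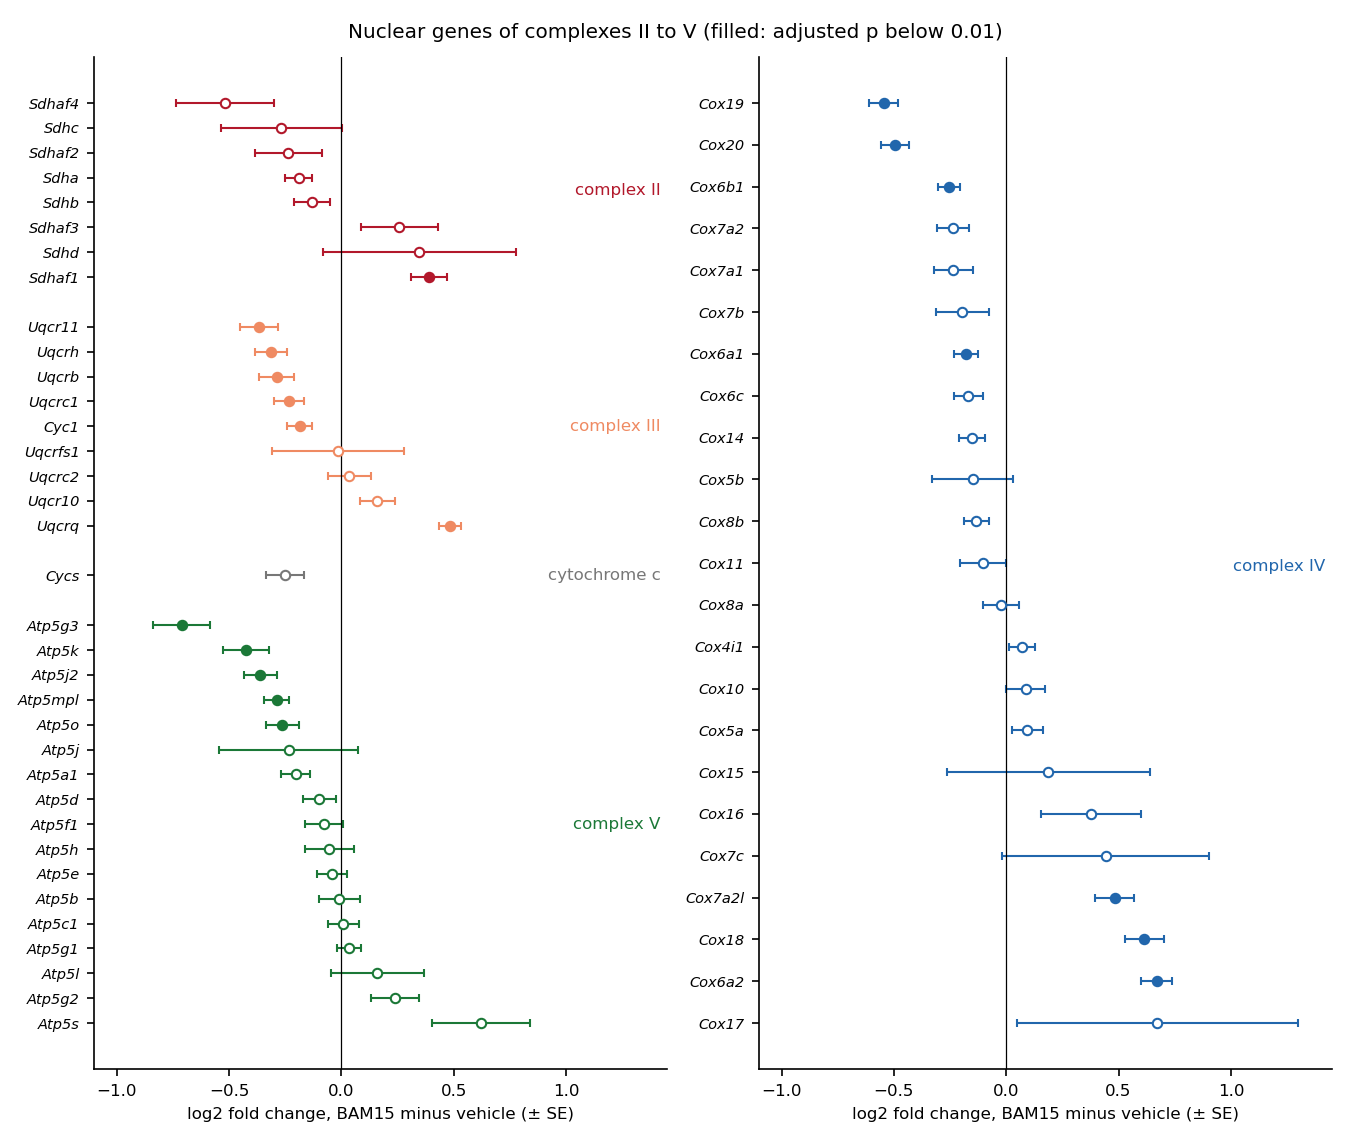
Log2 fold change of each tested member, BAM15 minus vehicle, with its standard error on the horizontal axis and genes grouped by complex (filled points have an adjusted p below 0.01). All points lie between −0.71 (Atp5g3) and 0.67 (Cox17), and the widest bars belong to members such as Cox17 whose BAM15 libraries differed among themselves.

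In complex II, edgeR called 0 of 8 members lower and 1 higher, an assembly gene (0% and 12.5%, against 20.3% and 22% of tested genes). Of the 8, 2 (Sdha and Sdhaf4) had a negative change with an unadjusted p below 0.05 in edgeR. DESeq2's Wald test called 1 lower and limma-voom 0. Sdhb, the iron-sulfur subunit and the member of complex II with the highest level, ran from 268 to 336 CPM in vehicle (median 293) and from 239 to 309 CPM after BAM15 (median 274). These ranges overlap, and the log2 fold change was −0.13 (SE 0.08, adjusted p = 0.178). For Sdha, the flavoprotein that oxidises succinate, the log2 fold change was −0.19 (SE 0.06, adjusted p = 0.0141), just outside the threshold, and DESeq2's Wald test called it (adjusted p = 0.0059). The membrane anchors Sdhc and Sdhd gave −0.27 (SE 0.27) and 0.35 (SE 0.43), with large errors. Within libraries 1 to 3 they gave −0.86 (adjusted p = 9.13e-05, called) and −0.73 (adjusted p = 0.0233, not called). Within libraries 4 to 6 they gave 0.09 and 0.98, neither called. The assembly gene Sdhaf1, whose product helps insert iron-sulfur clusters into Sdhb, rose from 13.3 ± 0.99 to 17.4 ± 1.55 CPM (SD, n = 6 each). Its vehicle libraries spanned 11.5 to 14.3 CPM (median 13.5) and its BAM15 libraries 16.1 to 20.0 CPM (median 16.6), without overlap. The log2 fold change was 0.39 (SE 0.08, adjusted p = 0.000716), with 0.44 within libraries 1 to 3 (adjusted p = 0.00128) and 0.32 within libraries 4 to 6 (adjusted p = 0.0425, not called). The median over the 8 members of complex II was −0.16. Summed over the members, complex II stood at 610 to 685 CPM in vehicle and 549 to 610 CPM after BAM15, with the highest BAM15 library just under the lowest vehicle library.

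In complex III, 5 of the 9 subunits were lower (55.6%, against 20.3% of all tested genes). Another 1 was higher (11.1%, against 22%) and 3 were not called, with a median log2 fold change of −0.19. The subunit that rose was Uqcrq, a small ubiquinone-binding subunit (chromosome 11, 53427922 to 53430831, minus strand, GRCm38). It ran from 436 to 479 CPM in vehicle (median 451) and from 597 to 676 CPM after BAM15 (median 632). Every BAM15 library lay above every vehicle library, and the level was 1.4-fold higher (log2 fold change 0.48, SE 0.05, adjusted p = 8.33e-07). The rise was 0.54 within libraries 1 to 3 and 0.41 within libraries 4 to 6, both called.

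Uqcrh, the hinge subunit next to cytochrome c1 and the complex III member with the highest vehicle level, spanned 580 to 659 CPM in vehicle (median 617) and 450 to 560 CPM after BAM15 (median 481). The groups did not overlap, and the 3 lowest libraries were BAM15 libraries 4 to 6. Its log2 fold change was −0.31 (SE 0.07, adjusted p = 0.00144). Uqcr11, a small subunit bound to the iron-sulfur protein, fell by 0.37 on the log2 scale (SE 0.08, adjusted p = 0.00173), from 193 to 226 CPM in vehicle (median 206) to 136 to 187 CPM after BAM15 (median 161), again without overlap. Both were called within libraries 1 to 3 and within libraries 4 to 6 (Uqcrh −0.22 and −0.43, Uqcr11 −0.22 and −0.54).

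The other 3 subunits of complex III that fell were weaker. Uqcrb, a subunit near the ubiquinone site, ran from 193 to 223 CPM in vehicle (median 217) and from 149 to 201 CPM after BAM15 (median 170), which overlap, and fell by 0.29 on the log2 scale (SE 0.08, adjusted p = 0.00598). Uqcrc1, a core subunit facing the matrix, ran from 131 to 141 CPM in vehicle (median 139) and from 101 to 128 CPM after BAM15 (median 120), and fell by 0.23 (SE 0.07, adjusted p = 0.00824). Cyc1, the haem-bearing cytochrome c1, ran from 107 to 116 CPM in vehicle (median 114) and from 87.2 to 107 CPM after BAM15 (median 99.6), and fell by 0.19 (SE 0.05, adjusted p = 0.00927). In these last 2 genes the groups came close without overlapping. The call of Uqcrb held within libraries 1 to 3 alone, that of Uqcrc1 within libraries 4 to 6 alone, and that of Cyc1 within neither. With single libraries left out, complex III kept 2 to 4 of its 5 lower calls: Uqcrh and Uqcr11 were kept in all 12 omissions. The 2 that stayed when vehicle library 3, 4, 5 or 6 was left out made up the lowest count, and it was 3 without vehicle library 1 or BAM15 library 1, 2, 3, 4 or 6. The 3 subunits not called, Uqcrfs1, Uqcrc2 and Uqcr10, had log2 fold changes of −0.02 to 0.16. Summed over complex III, vehicle libraries held 2103 to 2298 CPM and BAM15 libraries 2080 to 2265 CPM, so the sum overlapped although single subunits did not.

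Cycs encodes cytochrome c, the soluble carrier between complexes III and IV. It ran from 32.5 to 40.1 CPM in vehicle (median 38.7) and from 26.0 to 35.2 CPM after BAM15 (median 31.5). These ranges overlap, and the log2 fold change of −0.25 (SE 0.09, adjusted p = 0.022) was not called.

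In complex IV, members moved in both directions, with 4 of 23 tested members lower, 3 higher and 16 not called, and a median log2 fold change of −0.10. Among its 13 tested subunits, Cox6a2 was higher and Cox6a1 and Cox6b1 were lower. Cox6a2, the heart and skeletal muscle form of subunit 6a (chromosome 7, 128205435 to 128206387, minus strand), ran from 195 to 229 CPM in vehicle (median 218) and from 298 to 378 CPM after BAM15 (median 348). Every BAM15 library lay above every vehicle library, and libraries 1 to 3 were the 3 highest. The level was 1.59-fold higher (log2 fold change 0.67, SE 0.07, adjusted p = 8.53e-07), with 0.79 within libraries 1 to 3 and 0.53 within libraries 4 to 6, both called.

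Its paralog Cox6a1, the form made in most tissues (chromosome 5, 115345642 to 115348981, minus strand), ran from 329 to 379 CPM in vehicle (median 351) and from 284 to 323 CPM after BAM15 (median 316). The groups did not overlap, but the fall was small, 0.18 on the log2 scale (SE 0.05, adjusted p = 0.00914), and it was called within neither set of 3 libraries. Cox6b1, a subunit on the intermembrane face, ran from 359 to 393 CPM in vehicle (median 383) and from 297 to 342 CPM after BAM15 (median 315). It fell by 0.25 (SE 0.05, adjusted p = 0.000512) without overlap. Its log2 fold change was −0.29 within libraries 1 to 3 (called) and −0.23 within libraries 4 to 6 (adjusted p = 0.0253). Cox6c, the complex IV member with the highest level, ran from 768 to 878 CPM in vehicle (median 819) and from 662 to 795 CPM after BAM15 (median 741), which overlap, and its log2 fold change of −0.17 (SE 0.06, adjusted p = 0.038) was not called.

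Its assembly genes were split likewise, with 2 lower, 2 higher and 6 not called of 10. Cox18, whose product inserts part of the mitochondrially made Cox2 protein into the membrane, ran from 15.7 to 16.6 CPM in vehicle (median 16.1) and from 19.9 to 29.2 CPM after BAM15 (median 25.1). The groups did not overlap, and the level was 1.53-fold higher (log2 fold change 0.61, SE 0.09, adjusted p = 2.39e-05). Cox7a2l, whose product joins complexes III and IV into supercomplexes, ran from 85.0 to 98.8 CPM in vehicle (median 92.5) and from 109 to 151 CPM after BAM15 (median 129), with BAM15 libraries 1 to 3 all above libraries 4 to 6. It was 1.4-fold higher (log2 fold change 0.48, SE 0.09, adjusted p = 0.000278). Both genes were called within each set of 3 libraries, Cox18 at 0.44 and 0.76 and Cox7a2l at 0.59 and 0.33.

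Cox19, a copper-handling protein of the intermembrane space, ran from 56.9 to 68.9 CPM in vehicle (median 64.8) and from 40.5 to 49.1 CPM after BAM15 (median 43.8). It fell by 0.55 on the log2 scale (SE 0.06, adjusted p = 4.17e-06), by the same 0.55 within each set of 3 libraries. Cox20, a chaperone of Cox2, ran from 139 to 178 CPM in vehicle (median 163) and from 110 to 120 CPM after BAM15 (median 115), without overlap. It fell by 0.50 (SE 0.06, adjusted p = 7.17e-06), with −0.56 and −0.45 within the sets, both called. Almost the whole annotated end of Cox20 lies opposite exons of Hnrnpu (392 of its last 400 transcript bases), so its counts are uncertain. Of its 50-base windows, 78.6% also occur, read on either strand, in transcripts of Cox20b and Hnrnpu, which includes this overlap. The sum over complex IV was 4336 to 4862 CPM in vehicle and 4226 to 4860 CPM after BAM15, which overlap.

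**Figure D2:**
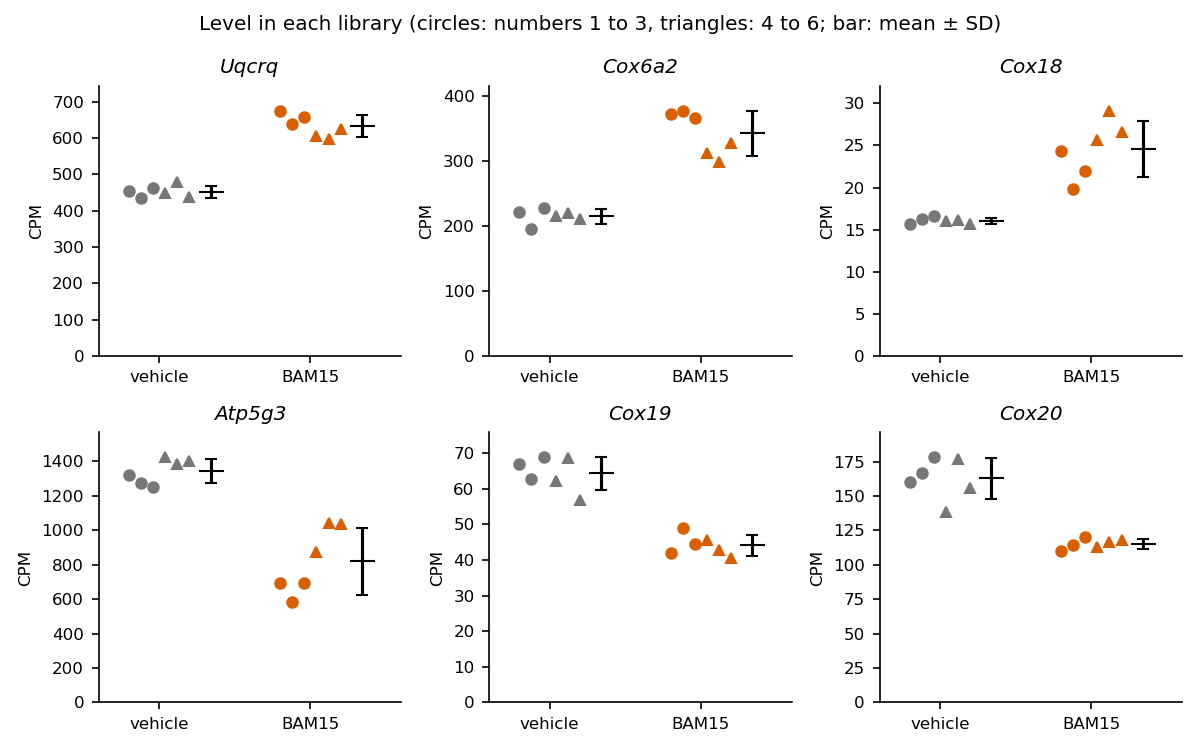
CPM in each of the 12 libraries for 6 called members, with vehicle in grey and BAM15 in orange, circles for libraries 1 to 3, triangles for libraries 4 to 6, and the mean ± SD beside each group. In all 6 genes the groups do not overlap, and Atp5g3 shows BAM15 libraries 4 to 6 (873 to 1039 CPM) above libraries 1 to 3 (582 to 693 CPM).

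In complex V, 5 of 16 subunits were lower (31.2%, against 20.3% of all tested genes) and none was called higher (against 22%). The single assembly gene, Atp5s, was not called (log2 fold change 0.62, SE 0.22, adjusted p = 0.0244). Of the 17 members, 2 (Atp5g2 and Atp5s) had a positive change with an unadjusted p below 0.05 in edgeR, and both DESeq2's Wald test and limma-voom called 0 higher. The largest fall among all members was that of Atp5g3 (chromosome 2, 73908447 to 73911326, minus strand), 1 of 3 genes for the c subunit of the proton ring and the member with the highest level in vehicle. It ran from 1251 to 1424 CPM in vehicle (median 1351) and from 582 to 1039 CPM after BAM15 (median 783). No BAM15 library reached the vehicle range, and the level fell by 38.9% (log2 fold change −0.71, SE 0.13, adjusted p = 0.000262). The fall was 0.97 on the log2 scale within libraries 1 to 3 and 0.52 within libraries 4 to 6, both called.

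Atp5k and Atp5j2, the membrane subunits e and f, also fell. Atp5k ran from 434 to 532 CPM in vehicle (median 454) and from 291 to 423 CPM after BAM15 (median 350), and its log2 fold change was −0.42 (SE 0.10, adjusted p = 0.00266). Atp5j2 ran from 487 to 556 CPM in vehicle (median 516) and from 357 to 456 CPM after BAM15 (median 401), and its log2 fold change was −0.36 (SE 0.07, adjusted p = 0.000624). In both, the groups did not overlap and BAM15 libraries 4 to 6 were the 3 lowest, opposite to Atp5g3. Atp5mpl, a small membrane proteolipid, fell by 0.29 (SE 0.05, adjusted p = 0.000346), from 326 to 376 CPM (median 351) to 266 to 303 CPM (median 287), without overlap. These 3 were called within each set of libraries (Atp5k −0.24 and −0.65, Atp5j2 −0.25 and −0.50, Atp5mpl −0.26 and −0.33). Atp5o, the stalk protein that confers oligomycin sensitivity, ran from 481 to 569 CPM in vehicle (median 526) and from 384 to 495 CPM after BAM15 (median 435), which overlap, and fell by 0.26 (SE 0.07, adjusted p = 0.00746). That call held within libraries 4 to 6 (−0.39) and not within libraries 1 to 3 (−0.16, adjusted p = 0.0314).

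The alpha and beta subunits of complex V were not called by edgeR over all libraries. Atp5b, the beta subunit, gave −0.01 (SE 0.09, adjusted p = 0.943), and Atp5a1, the alpha subunit, gave −0.20 (SE 0.06, adjusted p = 0.0144), which DESeq2's Wald test called (−0.21, adjusted p = 0.00886). Within libraries 1 to 3 edgeR called both lower, Atp5b at −0.20 (adjusted p = 0.00588) and Atp5a1 at −0.27 (adjusted p = 0.000279). Within libraries 4 to 6 neither was called, at 0.14 for Atp5b and −0.15 for Atp5a1. The median over the complex was −0.08. The sum over its members was 5757 to 6214 CPM in vehicle and 4611 to 5490 CPM after BAM15, without overlap. Without Atp5g3 the sums were 4482 to 4830 CPM and 3934 to 4452 CPM, which also did not overlap. They are shares of all counted reads, and in bulk RNA fewer cells of a type and less RNA per cell cannot be told apart.

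Paralogous subunits were then compared within each library, as the log2 ratio of their CPM (with 0.5 CPM added), which does not depend on how libraries are scaled apart from the added 0.5. Of the pairs considered, 5 could be tested, and p-values were adjusted over these. The ratio Cox6a2:Cox6a1 lay between −0.78 and −0.63 in vehicle and between 0.04 and 0.27 after BAM15. The CPM of the muscle form thus lay below that of Cox6a1 in all vehicle libraries and above it in all 6 BAM15 libraries. In BAM15 libraries 4 to 6 the ratios were only 0.05, 0.07 and 0.04. Whether CPM compares the transcript numbers of 2 genes was not tested. The difference between the groups was 0.84 on the log2 scale, a 1.79-fold shift (exact permutation test over libraries, two-sided, p = 0.00216, the smallest this design allows, adjusted p = 0.00361). The ratios of the 2 other muscle forms did not pass the test. For Cox7a1:Cox7a2 the difference was 0.01 (exact permutation p = 0.924), and for Cox8b:Cox8a it was −0.10 (exact permutation p = 0.286, adjusted p = 0.357), with overlapping groups in both.

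The 3 genes of the c subunit, which encode the same mature protein behind different import sequences, also shifted in proportion. Atp5g1:Atp5g3 rose by 0.78, from between −4.36 and −4.27 in vehicle to between −4.00 and −3.11 after BAM15. Atp5g2:Atp5g3 rose by 0.95, from between −8.54 and −8.26 to between −7.94 and −6.85. Each difference had an exact permutation p of 0.00216 (adjusted p = 0.00361). Atp5g1 itself stood at 62.4 to 70.4 CPM in vehicle and 64.3 to 72.8 CPM after BAM15 (log2 fold change 0.03, adjusted p = 0.606), and Atp5g2 at 3.07 to 3.71 CPM and 3.67 to 4.54 CPM (0.24, adjusted p = 0.0737), neither called. Both pairs share Atp5g3 and are not independent, and 98.9% of the 50-base windows at the end of Atp5g2 also occur in other genes, so its level is uncertain. The 3 called pairs had no overlap between the groups over the 12 libraries, which fixes their direction within libraries 1 to 3 and 4 to 6. The differences within these sets were 0.93 and 0.76 (Cox6a2:Cox6a1), 1.08 and 0.47 (Atp5g1:Atp5g3) and 1.25 and 0.65 (Atp5g2:Atp5g3). With 3 libraries against 3, an exact p cannot fall below 0.10.

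**Figure D3:**
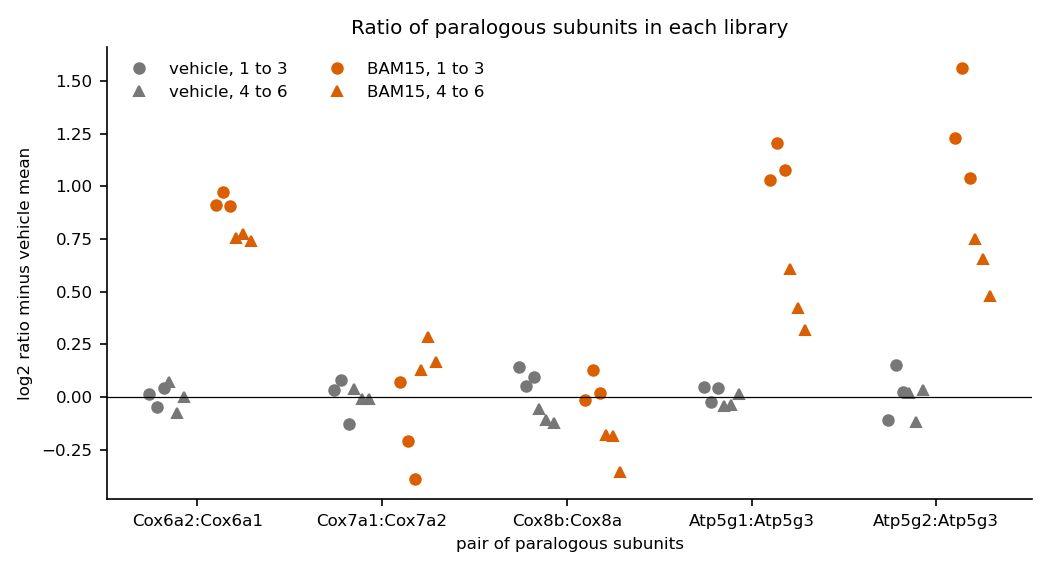
Log2 ratio of each paralog pair in each library, drawn relative to the mean of the 6 vehicle libraries, with vehicle in grey, BAM15 in orange, circles for libraries 1 to 3 and triangles for libraries 4 to 6. Cox6a2:Cox6a1 and both Atp5g3 pairs sit above the vehicle points in all BAM15 libraries, while Cox7a1:Cox7a2 and Cox8b:Cox8a overlap with vehicle.

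The heat map of members over the 12 libraries shows where the BAM15 libraries parted from each other. Of the 58 tested members, 28 (48.3%) were called within libraries 1 to 3 and 17 (29.3%) within libraries 4 to 6, where 44.4% and 33.2% of all genes were called. The 19 called members were chosen on all 12 libraries, both sets included, which in part fixes like signs within the sets, and none had opposite signs. Of the 39 members not called, 24 had opposite signs in the sets, 13 were called within libraries 1 to 3, 3 within libraries 4 to 6 and 0 in both. The difference between the sets was not tested.

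**Figure D4:**
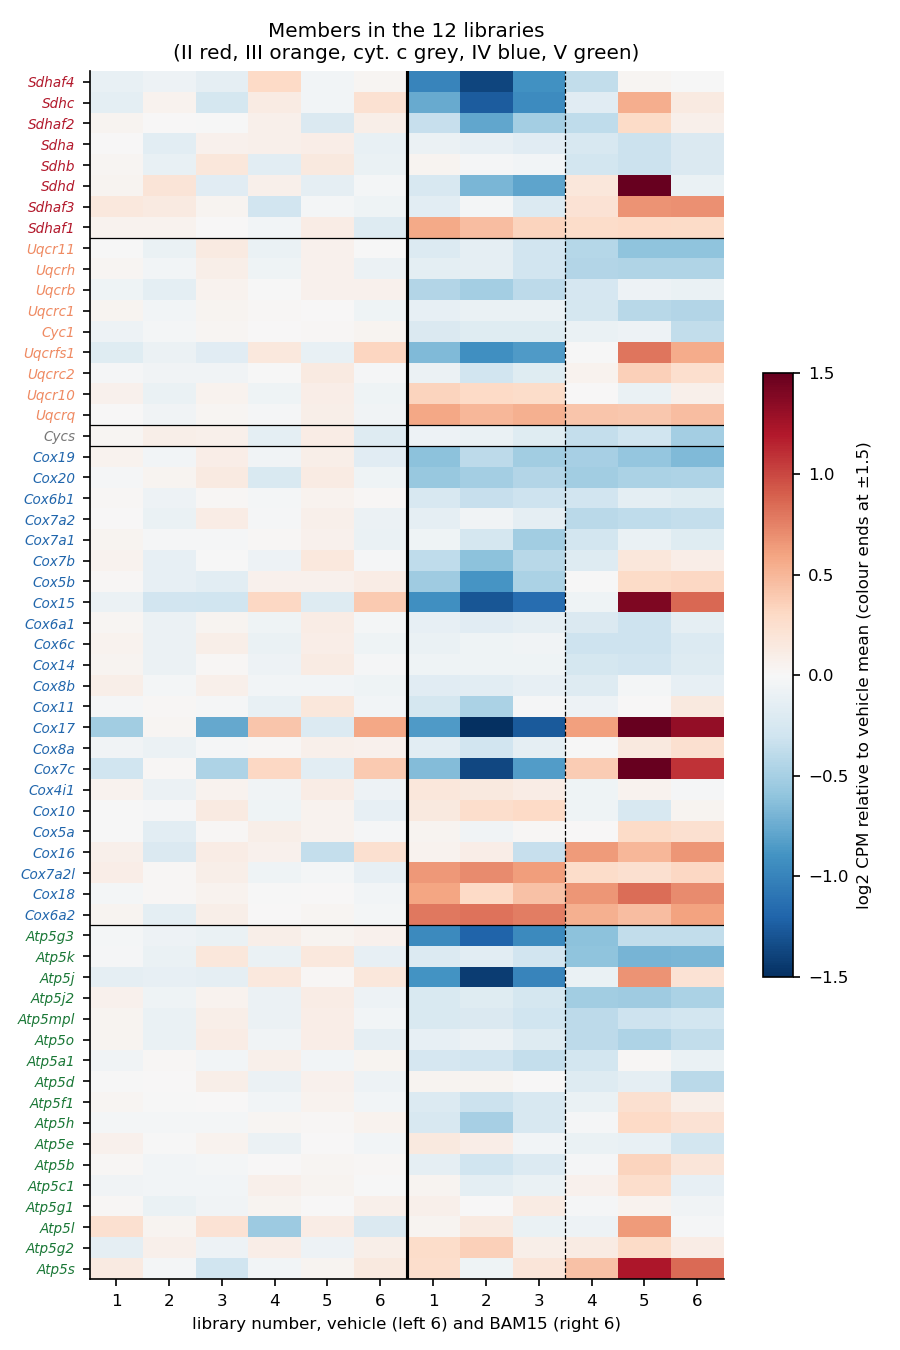
Log2 CPM of each tested member in each library relative to the mean of the vehicle libraries, with vehicle on the left, BAM15 on the right, a broken line between BAM15 libraries 3 and 4, and colours ending at ±1.5. Cox17, Cox7c, Cox15, Atp5j, Sdhc and Uqcrfs1 are blue in BAM15 libraries 1 to 3 and pale to red in libraries 4 to 6, whereas Cox6a2, Uqcrq, Cox19 and Cox20 keep 1 colour across BAM15.

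The largest differences between the sets were in members that were not called, and 6 of these, all higher in libraries 4 to 6, are named here after their values were seen. Cox17, the copper chaperone of complex IV, ran from 10.7 to 28.8 CPM in BAM15 libraries 1 to 3 and from 80.3 to 227 CPM in libraries 4 to 6, while vehicle libraries ran from 30.4 to 78.5 CPM. Thus the first set lay below all vehicle libraries and the second above them, and the log2 fold change over all libraries was 0.67 with an SE of 0.62 (adjusted p = 0.39). Cox7c, a small complex IV subunit, ran from 38.6 to 64.0 CPM and from 131 to 317 CPM in the sets, with 72.6 to 132 CPM in vehicle. Cox15, a haem A synthesis enzyme, ran from 7.16 to 9.30 CPM and from 17.3 to 48.6 CPM, with 14.6 to 23.8 CPM in vehicle, but all of its last 400 transcript bases lie opposite exons of Entpd7, so its counts are uncertain. Sdhd, a member with a low level, lay below all vehicle libraries (2.15 to 2.89 CPM) in BAM15 libraries 1 to 3 and overlapped them in libraries 4 to 6. The same order was seen in Atp5j, the coupling factor 6 of complex V (35.8 to 52.2 and 90.7 to 156 CPM, vehicle 88.6 to 109 CPM), and in Uqcrfs1, the Rieske iron-sulfur protein of complex III (47.7 to 57.4 and 90.8 to 160 CPM, vehicle 79.9 to 114 CPM).

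**Figure D5:**
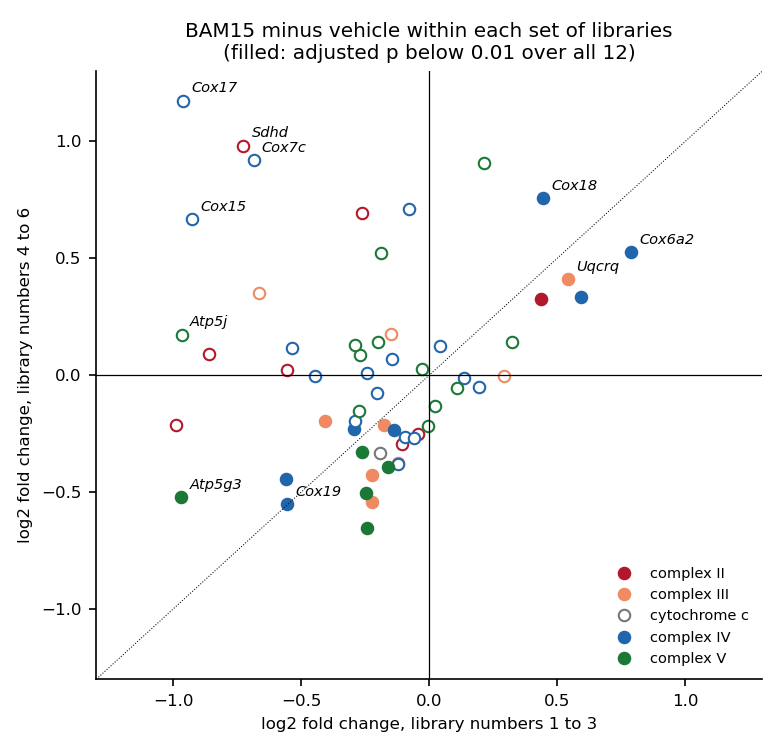
Log2 fold change of each member within libraries 4 to 6 (vertical) against that within libraries 1 to 3 (horizontal), coloured by complex, with filled points for members called over all 12 libraries and a dotted line of equal values. Filled points lie in the 2 quadrants of like sign, and open points such as Cox17 (−0.96 and 1.17) and Sdhd (−0.73 and 0.98) lie in the upper left. For Sdhd, only BAM15 library 5 lay above the vehicle range.

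The base composition of the annotated transcript end differed with this pattern. For each gene 1 protein-coding transcript was taken, with principal ones preferred and then the longest. Whether the reads fall at its end was not examined. Over the last 400 bases of the annotated transcript, the 21 members above in libraries 4 to 6 had a median GC content of 39.8%, the 21 below had 50.8%, and the 16 that overlapped had 45.8%. Across the 58 genes, which share the same libraries and are not independent replicates, the log2 ratio of the BAM15 means in libraries 4 to 6 to those in libraries 1 to 3 had a Pearson r of −0.52 and a Spearman rho of −0.64 with GC content, and 0.32 and 0.25 with transcript length. The part of base composition in the changes after BAM15 was not tested. Sequence shared with other genes also bears on single members. In 33 of 58 members no 50-base window of the last 400 bases occurred, read on either strand, in a transcript of another gene entry. In 13 members more than 20% did, among them the called Uqcrb (40.7%), Cox20 (78.6%) and Atp5o (45.3%), and the uncalled Cox7c (74.1%), Cox15 (100%) and Atp5l (78.6%). These counts include genes that overlap on the opposite strand, which gave all of the match in Cox15 (Entpd7). In Atp5o they include a second entry of the same symbol, which overlaps 135 bases on the same strand. Cox6a2 overlapped exons of Itgad on the opposite strand over 70 bases and Sdhaf1 those of E130208F15Rik over 66 bases, and the strand used for counting is not given in the sources used here.

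Genes of the same pathway outside the symbol rule were also split. Of 31 further assembly and regulatory genes, 29 were tested, 7 were lower, 4 were higher and 18 were not called, with a median log2 fold change of −0.005. Over all tested genes, 20.3% were called lower and 22% higher. Those that rose were Sco2 (0.65, SE 0.09, adjusted p = 2.2e-05) and Surf1 (0.48, SE 0.07, adjusted p = 3.84e-05), which act in copper delivery and early assembly of complex IV, Smim20 (0.37) and Hccs (0.27), which attaches haem to cytochrome c. Among those that fell, Pet100 changed by −0.57 (SE 0.07, adjusted p = 7.2e-06), Cmc2 by −0.47 and Coa3 by −0.34, all linked to complex IV, and Uqcc2 by −0.25, an assembly factor of complex III. The others that fell were Atpaf1 (−0.49, with a vehicle mean of 2.95 CPM), Higd1a (−0.48) and Uqcc1 (−0.21).

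Of the 6 mitochondrially encoded subunits of these complexes on the list, 2 were in the table and tested. mt-Co1, the catalytic subunit of complex IV, ran from 356 to 492 CPM in vehicle and from 1797 to 2278 CPM after BAM15, without overlap (log2 fold change 2.23, SE 0.09, adjusted p = 2.02e-11). The nuclear members of complex IV spanned −0.55 to 0.67. mt-Cytb, the only mitochondrially encoded subunit of complex III, ran from 1507 to 2606 CPM and from 1734 to 2869 CPM (0.19, SE 0.16, adjusted p = 0.336), which overlap. The other 4 were not analysed here.

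Myotube markers were present in all libraries, with a summed level of 21267 to 22760 CPM in vehicle and 21032 to 26381 CPM after BAM15, and 2 of 8 were called lower and 2 higher. Of 6 markers of undifferentiated or cycling myoblasts, 5 were lower and Myf5 was higher, against 20.3% and 22% of all tested genes. The sum of the 6 markers went from 270 to 323 CPM in vehicle to 125 to 140 CPM after BAM15. Their part in the changes of the respiratory genes was not tested. None of 4 adipocyte markers was in the table, and 1 of 4 osteoblast markers, Bglap, was, with at most 16 counts in a library, and was not tested.

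Promoters of 47 members, from 250 bases before to 50 bases after the start, were found in RefSeq for GRCm38.p6 and searched on both strands for the letters of sites of factors linked to respiratory genes or, for ATF4, to the stress response. The NRF1 letters GCGCNTGCG were present in 16 of the 47 (34%, against 6.31% of 32851 promoters in the table) and the ETS letters CCGGAAG in 19 (40.4%, against 8.86%). The ERRA letters AAGGTCA were present in 5 (10.6%, against 4.72%), the YY1 letters AAGATGGC in 4 (8.51%, against 2.75%) and the ATF4 site TGATGNAA in 0 (0%, against 3.97%). A gene can have several promoters in the table, while 1 was taken for each member, the available one nearest the start of its annotated transcript. The nearest one need not lie at that start. For Sdhaf1 it (30322326 to 30322625) lies inside the transcript, which starts at 30323895 on the minus strand. NRF1 letters were found in 6 of 11 promoters of members called lower, in 0 of 2 called higher and in 10 of 33 not called, and ETS letters in 6, 1 and 12. These matches describe the letters and do not show binding.

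The promoters of the 4 members with the largest falls among the 11 available, and of the 2 available ones that rose, are shown so that the letters can be compared (5′ to 3′ on the gene's strand, matches to any of the letters in capitals). Atp5g3 holds NRF1 and ERRA letters, Cox19 holds none, Cox20 holds ETS and YY1 letters and Atp5k holds NRF1, ETS and ERRA letters, with a palindromic NRF1 match that counts on both strands. Sdhaf1 holds ETS letters and Cox7a2l holds none. Like that of Sdhaf1, the regions shown for Cox19 and Cox7a2l lie inside the annotated genes. On the minus strand these genes begin at 139351418 and 83517330. Of the 11 lower members, Uqcrh, Cox6b1, Cox19, Cox20 and Atp5j2 hold no NRF1 letters.
Atp5g3 promoter, chr2:73911277-73911576, minus strand: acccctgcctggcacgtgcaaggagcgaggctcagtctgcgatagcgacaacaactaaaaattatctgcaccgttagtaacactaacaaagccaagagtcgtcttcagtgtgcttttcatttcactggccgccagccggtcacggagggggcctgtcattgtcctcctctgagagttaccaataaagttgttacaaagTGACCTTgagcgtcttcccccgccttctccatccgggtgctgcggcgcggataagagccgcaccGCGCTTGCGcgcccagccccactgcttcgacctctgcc
Cox19 promoter, chr5:139345117-139345416, minus strand: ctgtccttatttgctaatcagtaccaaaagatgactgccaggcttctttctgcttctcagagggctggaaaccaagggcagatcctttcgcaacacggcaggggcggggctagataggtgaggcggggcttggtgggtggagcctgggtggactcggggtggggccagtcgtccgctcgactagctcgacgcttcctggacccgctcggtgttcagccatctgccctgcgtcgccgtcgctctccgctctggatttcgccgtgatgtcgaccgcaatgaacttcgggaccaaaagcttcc
Cox20 promoter, chr1:178318903-178319202, plus strand: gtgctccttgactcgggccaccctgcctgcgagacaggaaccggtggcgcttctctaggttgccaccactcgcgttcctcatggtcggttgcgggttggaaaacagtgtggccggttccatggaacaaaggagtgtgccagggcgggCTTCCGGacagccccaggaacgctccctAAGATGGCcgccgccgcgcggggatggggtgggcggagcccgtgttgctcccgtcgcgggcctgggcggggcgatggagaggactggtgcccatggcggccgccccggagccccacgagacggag
Atp5k promoter, chr5:108434350-108434649, minus strand: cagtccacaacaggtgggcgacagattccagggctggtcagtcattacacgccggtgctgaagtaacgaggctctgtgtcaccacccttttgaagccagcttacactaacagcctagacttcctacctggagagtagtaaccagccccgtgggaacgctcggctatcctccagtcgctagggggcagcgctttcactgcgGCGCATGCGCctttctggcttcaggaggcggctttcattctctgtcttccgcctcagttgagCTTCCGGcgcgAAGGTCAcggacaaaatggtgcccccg
Sdhaf1 promoter, chr7:30322326-30322625, minus strand: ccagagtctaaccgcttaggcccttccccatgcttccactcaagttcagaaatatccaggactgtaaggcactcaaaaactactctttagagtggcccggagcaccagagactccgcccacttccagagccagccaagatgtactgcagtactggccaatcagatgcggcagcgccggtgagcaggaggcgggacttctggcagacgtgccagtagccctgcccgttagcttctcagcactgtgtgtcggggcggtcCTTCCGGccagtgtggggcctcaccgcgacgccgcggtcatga
Cox7a2l promoter, chr17:83514284-83514583, minus strand: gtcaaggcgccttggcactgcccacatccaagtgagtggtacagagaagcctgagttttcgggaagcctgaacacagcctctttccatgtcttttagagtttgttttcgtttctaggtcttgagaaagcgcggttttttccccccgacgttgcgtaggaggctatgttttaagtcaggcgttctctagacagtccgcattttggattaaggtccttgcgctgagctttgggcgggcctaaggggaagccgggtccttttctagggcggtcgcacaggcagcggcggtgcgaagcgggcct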

How the data were processed

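The members, gene lists and tests were chosen with earlier results of these data known. The authors prepared 3′ QuantSeq libraries, aligned and counted the reads with BlueBee software and deposited counts, unnormalized whole read numbers for each Ensembl gene. Per the labels, the submitters' processing notes name GRCm38 and DESeq2 1.22.2. The aligner, annotation and strand are not given in the sources used here. The authors also deposited a normalized signal, made with DESeq2, which supplied gene symbols only. The tables hold 11 further columns that match no sample here, and these were not used. For 2293 identifiers without a symbol, 2260 were found in a table of gene names and used for the lists only.

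The 12 libraries (6 of each group) were analysed in R 4.3.3 with edgeR 4.0.16. filterByExpr removed 2383 genes, TMM factors ran from 0.932 to 1.04, and a robust quasi-likelihood fit with condition as its only term was made. The SE was the absolute log2 fold change over the root of F. Totals of 13983725 to 18866728 reads limit precision mainly for members under a few CPM, and PCR reads are not independent molecules. Chi-square per gene between libraries of a group was at least 4.72, so none is a copy.

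Named genes were all called members, the member with the highest level in each complex, and the paralog pairs. Cox4i2 and Cox6b2 were not analysed here. Alternatives were other scalings, DESeq2 1.42.0, limma-voom 3.58.1, other filters, a block for each library number, a block for libraries 1 to 3 and 4 to 6, each of these sets alone, an adjusted p below 0.05, another pseudocount (2 CPM) and each library left out. Positions, transcripts and overlaps came from GENCODE M21 (GRCm38), and promoters from RefSeq (GRCm38.p6). Python 3.11.15 and matplotlib 3.10.9 made the figures.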

Additional observations from a re-analysis of the deposited data

How the results depend on the processing

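Among the 19 called members, 14 (9 lower, 5 higher) kept direction and call in all 12 omissions of 1 library, and 12 did so under every alternative run. Cyc1, Uqcrb, Uqcrc1, Cox6a1 and Atp5o lost their call in some omission, and Sdhaf1 and Cox6b1 within libraries 4 to 6. No member passed the study's thresholds under any alternative.

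Leaving out 1 library at a time, the members called lower numbered 2 to 4 in complex III (5 with all libraries) and 0 to 1 in complex II (1 without vehicle library 2), and those called higher numbered 0 to 1 in complex V (1 without BAM15 library 2). The difference in Cox7a1:Cox7a2 ran from −0.045 to 0.089 and was negative without BAM15 library 1, 4, 5 or 6 or vehicle library 3. The change of Cox8a ran from −0.080 to 0.026 and was positive without BAM15 library 1, 2 or 3.

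With library size only, 1 member of complex II and 7 of complex IV were lower, the median of complex III was −0.25 and the log2 fold change of Atp5g1 was −0.028. That scaling moved the median of all genes from 0.02 to −0.04, and called 19 members lower. DESeq2's Wald test called 1 member of complex II lower. A block for libraries 1 to 3 and 4 to 6 gave 2 lower in complex II and 1 higher in complex V. At an adjusted p below 0.05, 1 was lower in complex II, 8 were lower in complex IV and 1 was higher in complex V. Cox7a2 (adjusted p = 0.0101 over all libraries) was called by DESeq2 and limma-voom.

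Within libraries 1 to 3, complex II had 3 lower, complex III 2 higher and complex V 9 lower with a median of −0.20. The differences in Cox6a2:Cox6a1, Atp5g1:Atp5g3 and Atp5g2:Atp5g3 were 0.93, 1.08 and 1.25 (exact permutation, adjusted p = 0.167 each), and Cox7a1:Cox7a2 turned to −0.17. Within libraries 4 to 6, complex III had 3 lower and complex V 1 higher, the 3 pairs differed by 0.76, 0.47 and 0.65 (exact permutation, adjusted p = 0.1 each), and Cox4i1 (−0.012), Cox8a (0.071) and Atp5g1 (−0.055) turned sign, none of them called. The cause of these changes was not tested, nor was the part of the fewer libraries in them.

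A pairing of the groups by library number was neither shown nor excluded: deviations of same-numbered libraries correlated between −0.08 and 0.43, and 2 of 12 libraries correlated best with their own number. With a replicate block, 13 members were lower and 5 higher, against 14 and 5 without it: Cyc1 (adjusted p = 0.0185) and Cox6a1 (0.0233) lost their call and Cycs (0.00656) gained one, and no other call changed.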
